A study of Mus musculus with 8 samples.

Results

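The transcripts described here belong to the synthesis of cholesterol and its feedback control, measured in the hypothalamus of male mice of the inbred C57BL/6J strain that differed in how much weight they gained under 1 diet plan. Mice with a large gain are called high gainers here, and mice with a small gain low gainers. The 8 genes were chosen by symbol, and a probe counted where the platform annotation gave it exactly 1 gene. Of the 8 genes, 7 had such a probe (Hmgcs1, Sqle, Fdft1, Idi1, Cyp51, Dhcr7 and Insig1), out of 13840 genes named in this way. Idi1 had 2 probes, which made 8 probes in all, and Fdps, the farnesyl diphosphate synthase, had no probe that was used here. Although the set was labelled as synthesis and uptake, its members were enzymes of synthesis and 1 regulator, and receptors for uptake are described with the other genes of the pathway. Per the labels, both groups received a high-fat diet for 6 weeks, a low-fat diet for 2 weeks and the high-fat diet for 6 more weeks, and no genotype, transgene or drug differed between them. In the authors' experiment with the same periods, the low-fat diet was also restricted in amount. A pool held the RNA of 20 mice, and 4 arrays were run on it. Arrays of a pool were therefore technical replicates, and every p-value measures the spread between arrays of the 2 pools, not between mice. The labels gave no age. The hypothalamus was not separated into cell types, so fewer cells of a type and less RNA per cell cannot be told apart.

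Cholesterol in the brain is made locally, because the cholesterol of blood lipoproteins does not cross the blood-brain barrier to any large extent. The cell builds it from acetyl-CoA through mevalonate, isoprenoid diphosphates, squalene and lanosterol. When sterols in the endoplasmic reticulum run low, the SREBP-2 transcription factor is escorted to the Golgi by SCAP, is cut free, and switches on most of the enzymes together. When sterols are plentiful, INSIG proteins hold SCAP in the endoplasmic reticulum, and Insig1 is itself a target of SREBP. Myelin formation and astrocytes account for much of the demand and supply of brain cholesterol, and neurons clear the excess through 24-hydroxylation.

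The promoters of Hmgcs1 and Insig1 are shown because the Hmgcs1 probe varied little between arrays and the Insig1 probe had the largest difference between the pools. RefSeq (GRCm38.p6) gave 7 windows for 5 of the 8 genes, and the 250 bases before the annotated start were searched on both strands for TCACNCCAC (a sterol response element), CCAAT (the site of NF-Y, a partner of SREBP) and CACGTG (an E-box, which SREBP can also bind). No base was shared between matches in the sequences shown. Capitals mark these matches, and the other-strand form of CCAAT reads ATTGG.
Hmgcs1, chr13:119690101-119690350, plus strand: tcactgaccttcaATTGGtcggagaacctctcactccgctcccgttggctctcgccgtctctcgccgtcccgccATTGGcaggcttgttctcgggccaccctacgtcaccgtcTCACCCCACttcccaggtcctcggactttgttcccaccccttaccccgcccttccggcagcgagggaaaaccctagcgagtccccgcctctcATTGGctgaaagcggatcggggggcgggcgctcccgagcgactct
Insig1, chr5:28071162-28071411, plus strand: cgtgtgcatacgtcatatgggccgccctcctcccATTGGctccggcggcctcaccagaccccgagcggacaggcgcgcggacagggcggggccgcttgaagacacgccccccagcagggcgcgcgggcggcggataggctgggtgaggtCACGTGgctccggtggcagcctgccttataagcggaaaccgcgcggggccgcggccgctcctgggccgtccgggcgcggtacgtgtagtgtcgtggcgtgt
The Hmgcs1 window held 1 sterol response element and 3 CCAAT boxes. The Insig1 window held 1 CCAAT box and 1 E-box. A CCAAT box was found in 5 of the 7 windows of these genes, and in 33.8% of the 32851 windows of the same length. The sterol response element was found in 1 of the 7 and in 1.05% of all windows, and the E-box in 2 of the 7 and in 6.02% of all windows. A match of letters is a description and not evidence of binding, and the array data hold no readout of these sequences.

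On low gainer array 2 the probes ranked unlike those on any other array, and it was kept apart from every comparison unless named. Across probes its log2 intensities correlated with those of another array at an r between 0.227 and 0.241 (5375 probes), against 0.941 to 0.987 between any pair of the 7 others (11169 probes). Between 13657 and 16873 of the 33012 probes had a value on an array. Of 14 hypothalamic marker genes, 10 of the 11 with a probe had a value on at least 1 of the 7 arrays, among them Oxt (oxytocin) and Hcrt (orexin), and Nkx2-1, a transcription factor of the region, had none. Of the 9 with a value on all 7 arrays, 7 had a log2 difference below 0, with a median of -0.23, and 0 were called, while 3 had an unadjusted p under 0.05 by limma (6.48% of all probes did) and 2 did not overlap between the pools (4.77% of all probes). Of 9 anterior pituitary markers, 8 had a probe and 3 (Gh, Prl and Cga) had a value on all 7 arrays, and these 3 were called higher in high gainers. The summed intensity of Gh, Prl and Cga lay between 8.30 and 10.4 on high gainer arrays, against 0.837 to 1.38 on low gainer arrays 1, 3 and 4. Lhb, a gonadotropin subunit, had 0.339 to 0.416 on 3 high gainer arrays, against 0.364 and 0.366 on low gainer arrays 1 and 4. Pomc had 0.735 to 1.48 on the high gainer arrays, against 0.208 on low gainer array 4 alone, and Tshb, Tbx19 and Pitx1 had a value on at most 2 of the 7 arrays. Of 9 oligodendrocyte markers, 6 had a value on all 7 arrays, and their summed intensity was 47.5 to 75.8 on high gainer arrays, against 41.5, 12.7 and 41.7 on low gainer arrays 1, 3 and 4. Each of the 6 had a log2 difference above 0, with a median of 0.40, and 0 were called. An unadjusted p under 0.05 by limma was found for 2 (6.48% of all probes), and 2 did not overlap between the pools (4.77% of all probes). Of 8 astrocyte markers, 4 had a value on all 7 arrays, with sums of 45.3 to 56.1 on high gainer arrays, against 40.7 to 52.3 on low gainer arrays 1, 3 and 4. Most of each sum was the Aldoc probe, at 41.5 to 52.1 on high gainer arrays and 34.9 to 47.8 on these low gainer arrays. The log2 differences of the 4 markers ran from -0.61 to 0.54, with 3 above 0 and 1 below, so the sum does not stand for all of them.

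The comparison asked whether the pool of high gainers and the pool of low gainers differed in the cholesterol genes. None of them passed the test. Of the 8 probes, 7 had a value on all 7 arrays and entered a limma fit over 11169 probes, and 0 of these 7 had an adjusted p under 0.05, as against 0.0269% of all probes (3 probes, those of Gh, Cga and Prl). Fitted differences, on the log2 scale and as high minus low, ran from -0.16 for 1 probe of Idi1 to 0.57 for Insig1. Their median was -0.015, beside -0.0024 over all probes, with 3 probes above 0 and 4 below. An unadjusted p under 0.05 by limma was found for 1 of the 7, the Insig1 probe, and for 6.48% of all probes. For 0 of the 7 probes did the pools lie apart without overlap, as they did for 4.77% of all probes (2.07% higher and 2.70% lower in high gainers). The half-width of the 95% confidence interval had a median of 0.49 log2 units over all probes. This width belongs to an unadjusted p.

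**Figure D1:**
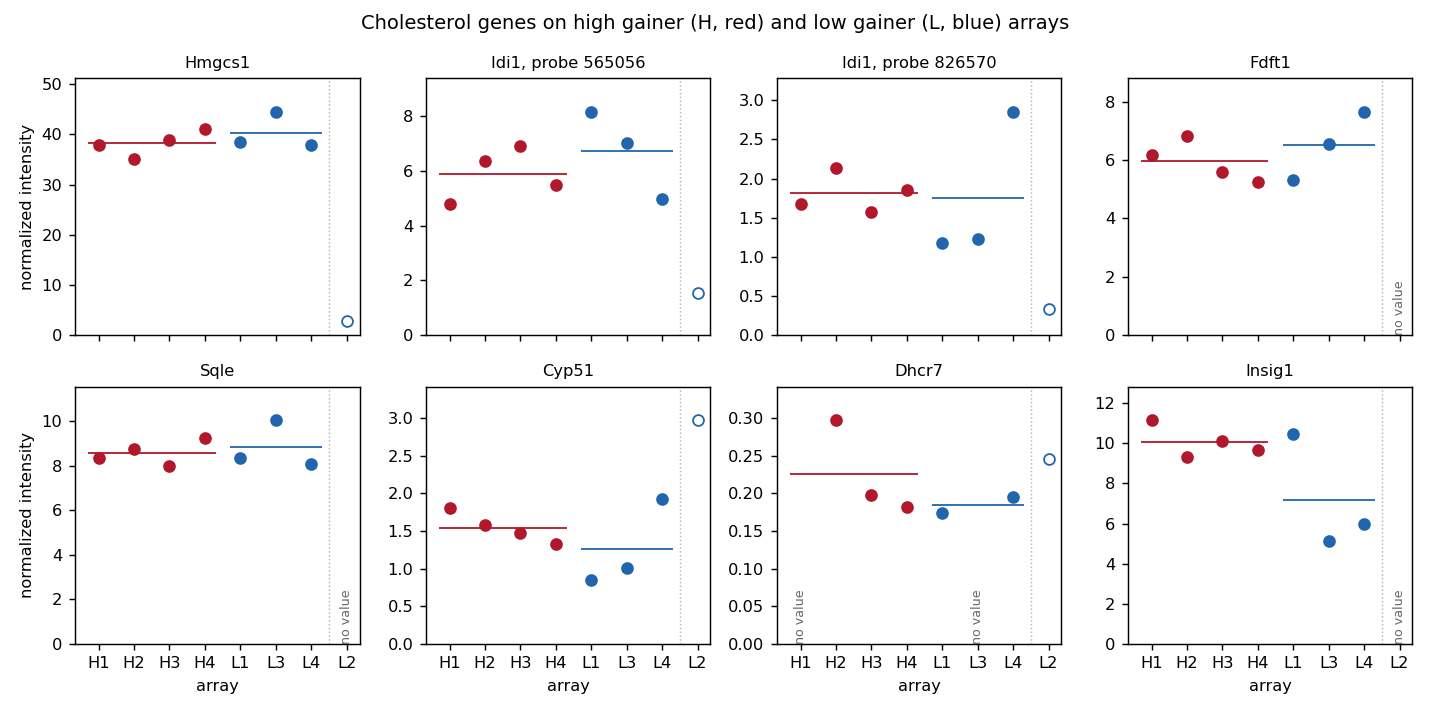
Deposited normalized intensity (linear axis from 0) of the 8 probes on each array, with high gainer arrays H1 to H4 in red, low gainer arrays L1, L3 and L4 in blue and low gainer array L2 as an open point; horizontal lines are pool means without L2. The pools overlap for each probe, Insig1 splits the low gainer arrays (10.4 on L1, 5.15 on L3 and 5.97 on L4), and the 2 Idi1 probes order L1 and L4 oppositely.

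Hmgcs1 encodes the cytosolic HMG-CoA synthase, which condenses acetyl-CoA with acetoacetyl-CoA at the head of the mevalonate route. Its deposited intensity was 38.0, 35.1, 38.9 and 41.1 on high gainer arrays 1 to 4, against 38.4, 44.5 and 38.0 on low gainer arrays 1, 3 and 4. The ranges overlapped, and the highest deposited intensity was on low gainer array 3. In the normalized log2 values of the fit, high gainer array 4 was the highest at 5.37, and low gainer array 3 had 5.30. The fitted log2 difference was -0.015 (95% interval -0.31 to 0.28, limma adjusted p = 0.990). The ratio of the highest to the lowest deposited intensity was 1.17 in both pools. Low gainer array 2 had 2.87.

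Idi1 encodes the isopentenyl diphosphate isomerase, which balances the pair of isoprenoid building blocks, and its 2 probes did not give the same picture. Probe 565056 had 4.77, 6.37, 6.91 and 5.47 on high gainer arrays 1 to 4, against 8.15, 7.01 and 4.96 on low gainer arrays 1, 3 and 4. Probe 826570 had 1.67, 2.14, 1.57 and 1.86 on high gainer arrays, against 1.18, 1.23 and 2.85 on low gainer arrays 1, 3 and 4. Within the low gainer pool, array 1 was thus the highest by the first probe and the lowest by the second, and array 4 the reverse. Both probes carry the same RefSeq transcript in the annotation. Their log2 differences were -0.16 (95% interval from -0.59 to 0.27) and 0.14 (from -0.42 to 0.70), with limma adjusted p-values of 0.917 and 0.951. Probe 826570 was at -0.088 when low gainer array 1 was left out. With such a disagreement, no direction can be given for Idi1.

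Fdft1 encodes squalene synthase, the first enzyme committed to sterols. It had 6.17, 6.81, 5.598 and 5.246 on high gainer arrays 1 to 4, against 5.32, 6.55 and 7.64 on low gainer arrays 1, 3 and 4. Arrays of either pool lay at both ends of the range. The fitted log2 difference was -0.11 (95% interval -0.50 to 0.28, limma adjusted p = 0.942).

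Sqle encodes squalene epoxidase, which oxidises squalene ahead of ring closure and is a point of flux control. Its intensity was 8.32, 8.73, 7.97 and 9.23 on high gainer arrays 1 to 4, against 8.36, 10.02 and 8.06 on low gainer arrays 1, 3 and 4. The pools overlapped, and the ratio of the highest to the lowest array was 1.16 among high gainer arrays and 1.24 among low gainer arrays. The fit gave -0.027 on the log2 scale (95% interval -0.35 to 0.30, limma adjusted p = 0.987).

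Cyp51 encodes lanosterol 14-alpha-demethylase, the cytochrome P450 that starts the trimming of lanosterol. Its values were 1.80, 1.57, 1.47 and 1.32 on high gainer arrays 1 to 4, against 0.842, 1.00 and 1.93 on low gainer arrays 1, 3 and 4. Low gainer arrays 1 and 3 lay below all high gainer arrays, whereas low gainer array 4 lay above them all. The fitted log2 difference was 0.36 (95% interval -0.18 to 0.90, limma adjusted p = 0.840). Removing low gainer array 1 gave 0.11, and removing low gainer array 4 gave 0.66.

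Dhcr7 encodes 7-dehydrocholesterol reductase, which catalyses the last step of one branch of the route. It was a dim probe, with values of 0.297, 0.198 and 0.181 on high gainer arrays 2, 3 and 4, against 0.174 and 0.195 on low gainer arrays 1 and 4. High gainer array 1 and low gainer array 3 had no value, so Dhcr7 was not part of the fit. In the fit over probes with a value on at least 2 arrays of each pool, Dhcr7 was at a log2 difference of 0.089 (95% interval -0.77 to 0.95, limma adjusted p = 0.993).

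Insig1 encodes the sterol-sensing anchor that retains the SCAP and SREBP complex in the endoplasmic reticulum. It had 11.1, 9.32, 10.1 and 9.69 on high gainer arrays 1 to 4, against 10.4, 5.15 and 5.97 on low gainer arrays 1, 3 and 4. The high gainer arrays lay close together, at 10.1 ± 0.787 (SD, n = 4), while the low gainer arrays were spread, at 7.19 ± 2.85 (SD, n = 3). Low gainer array 1 fell within the high gainer range, and arrays 3 and 4 lay below it. The fold of high over low gainers was 1.48, or 0.57 on the log2 scale (95% interval 0.10 to 1.03). The unadjusted p by limma was 0.0198 and the adjusted p 0.750, so Insig1 did not pass over all probes.

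The call of Insig1 depended on low gainer array 1, and its size on low gainer arrays 1 and 3. When low gainer array 1 was left out, the fit gave 0.87 (95% interval 0.51 to 1.23, limma adjusted p = 0.0271), and Insig1 was then called higher in high gainers. In that comparison 171 of 11169 probes were called, or 1.53%, and only low gainer arrays 3 and 4 stood for their pool. No other member probe was called in it, the next smallest limma adjusted p being 0.513 for Fdft1. Leaving out low gainer array 3 gave 0.35 (limma unadjusted p = 0.131, adjusted p = 1.00), and leaving out low gainer array 4 gave 0.47 (limma unadjusted p = 0.0604, adjusted p = 0.524). Leaving out high gainer array 1 gave 0.52 (limma unadjusted p = 0.0536, adjusted p = 0.995). The summed intensity of pituitary markers was 0.996, 1.38 and 0.837 on low gainer arrays 1, 3 and 4, where Insig1 had 10.4, 5.15 and 5.97. The oligodendrocyte sum on these arrays was 41.5, 12.7 and 41.7, and most of it was the Mbp probe, at 36.1, 9.68 and 33.3. Cldn11 (3.06 against 1.09), Mog (2.74 against 1.93), Cnp (1.61 against 1.41) and Mag (0.658 against 0.506) were higher on array 4 than on array 1. Olig2, like Mbp, went the other way, at 0.322 on array 4 against 0.419 on array 1. The part of pituitary or oligodendrocyte content in the Insig1 values was not tested.

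**Figure D2:**
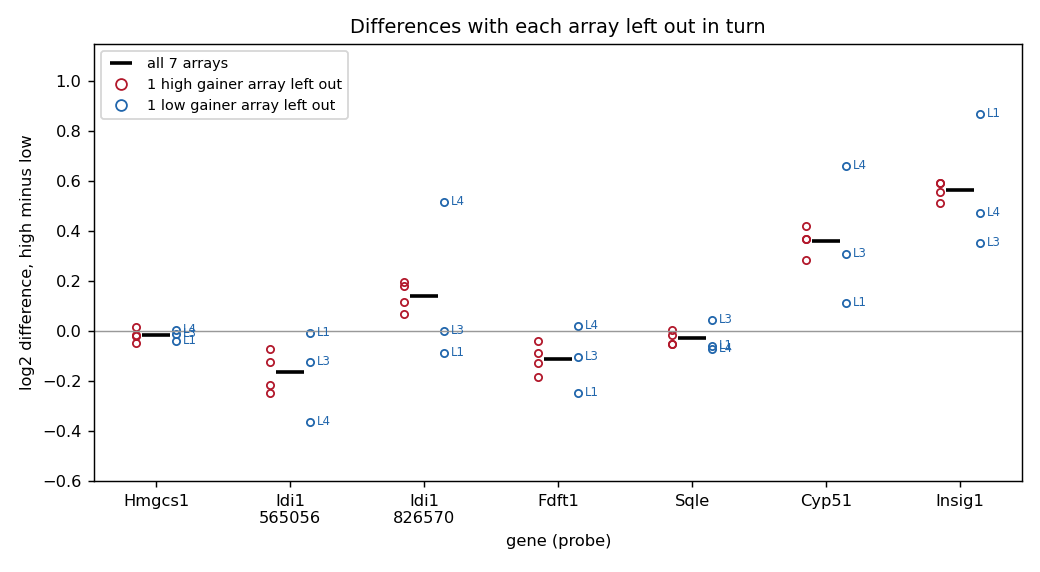
Log2 difference, high minus low gainer arrays, of the 7 fitted probes with all 7 arrays (black bars), with 1 high gainer array left out (red circles) and with 1 low gainer array left out (blue circles, labelled by the array removed). Insig1 runs from 0.35 to 0.87, and Cyp51 and both Idi1 probes spread with the low gainer array removed, whereas Hmgcs1 and Sqle stay near 0.

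The spread among the members lay mostly in the low gainer pool. The ratio of the highest to the lowest deposited intensity had a median of 1.30 over the 7 probes on the 4 high gainer arrays, and of 1.64 on the 3 low gainer arrays. These ratios are of deposited intensity, before the normalization of the fit, and can also hold differences between arrays as a whole. Low gainer array 3 had a median intensity of 0.990 over its 13657 values. The rest of the 7 arrays had 0.714 to 0.882 over 15173 to 16873 values. As the sets of probes differ, these medians do not measure scale alone. Over all 11169 probes the medians were 1.40 and 1.55. On low gainer arrays the ratio was 2.42 for Idi1 probe 826570, 2.29 for Cyp51 and 2.03 for Insig1, placing them at the 89.6th, 87.1st and 79.6th percentile of all probes. Hmgcs1, at 1.17, was at the 8.55th percentile and Sqle, at 1.24, at the 15.5th. Fdft1, Cyp51 and Idi1 probe 826570 were lowest on low gainer array 1 of the 3, whereas Insig1 and Idi1 probe 565056 were highest there. The members did not move as one block between arrays. Averaged over the 7 probes, the deviation from each probe's own mean was between -0.010 and 0.11 log2 units on the high gainer arrays, against -0.12, -0.14 and 0.078 on low gainer arrays 1, 3 and 4. The probes whose centred profile over the 7 arrays was nearest to this average named Slc6a3, Otud6b, Cox11, Ahctf1 and Atp6v0e2, at a root mean square distance between 0.048 and 0.064 log2 units. As the average stayed between -0.14 and 0.11, a small distance to it can mark a probe that varied little. A pattern shared between these probes and the members was not tested.

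Low gainer array 2 had no value for Insig1, Sqle and Fdft1, which ranked between the 81.7th and 92.0th percentile of the values on the other 7 arrays. Hmgcs1 ranked at the 72.1st percentile on this array and between the 97.9th and 98.4th on the others. Idi1 probe 826570 ranked at the 17.2nd percentile there, against 55.0th to 76.4th elsewhere. Cyp51 went the other way, with an intensity of 2.97 and a rank at the 72.8th percentile, above its 50.3rd to 69.3rd on the other arrays. When this array was included, only 4 of the member probes had a value on all 8 arrays, and the log2 difference of Hmgcs1 was 0.82 with an interval from -0.92 to 2.55.

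**Figure D3:**
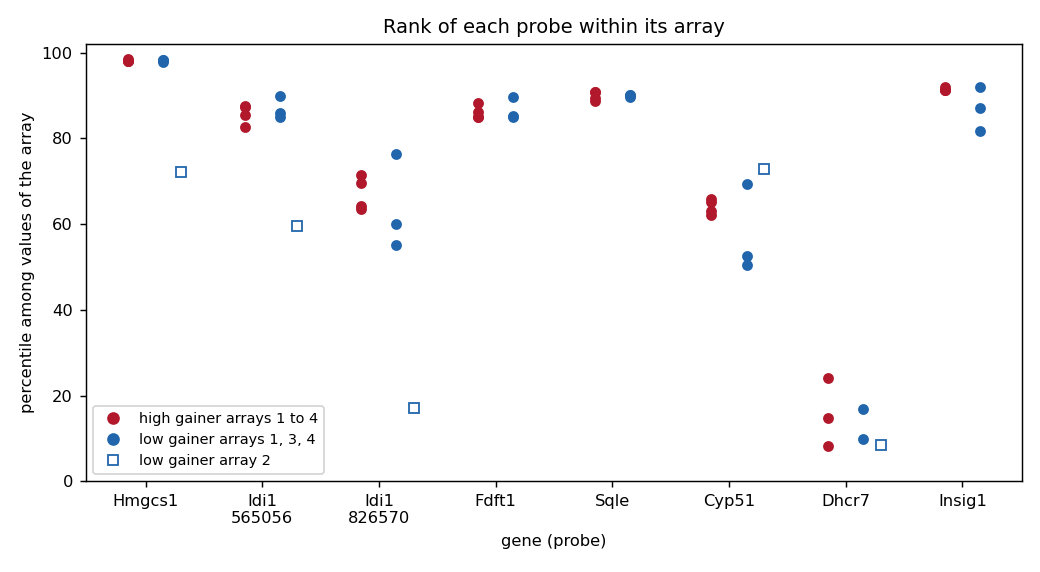
Percentile rank of each member probe among all values of the same array, with high gainer arrays in red, low gainer arrays 1, 3 and 4 in blue and low gainer array 2 as an open square where it had a value. Hmgcs1 sits between the 97.9th and 98.4th percentile on 7 arrays and at the 72.1st on low gainer array 2.

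Other genes of the pathway gave the setting. Of 40 further genes, 27 had a probe naming 1 gene and 20 had a value on all 7 arrays. By limma 0 of the 20 were called higher and 0 were called lower, beside 0.0269% of all probes called. An unadjusted p under 0.05 by limma was found for 2 of the 20, Pmvk and Cyp46a1, and for 6.48% of all probes. The median log2 difference of the 20 was 0.14 with 15 above 0. Over all probes it was -0.0024, with 5542 of 11169 above 0. Removing low gainer array 1 gave a median of 0.22, and removing low gainer array 4 gave 0.053. No probe used here named Srebf2, which encodes SREBP-2.

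Among the mevalonate steps, 3 of 6 genes were tested. Pmvk, phosphomevalonate kinase, had 3.19, 4.30, 3.16 and 2.63 on high gainer arrays 1 to 4, against 3.53, 5.48 and 5.23 on low gainer arrays 1, 3 and 4. Low gainer arrays 3 and 4 lay above all high gainer arrays, and array 1 lay among them, an order opposite to that of Insig1. The fitted log2 difference was -0.50 (95% interval -0.95 to -0.047, limma adjusted p = 0.756), and it was -0.69 with low gainer array 1 left out (limma adjusted p = 0.108). Mvd, which makes isopentenyl diphosphate, had a log2 difference of 0.10, and Ggps1, the geranylgeranyl diphosphate synthase, one of 0.047.

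Of the steps after squalene, 6 of 9 genes were tested, with a median log2 difference of 0.016. The smallest p belonged to Hsd17b7, a 3-ketosteroid reductase, at 0.24 log2 units (limma adjusted p = 0.859). Tm7sf2, a sterol reductase, had 0.21, and Msmo1, the methylsterol monooxygenase, -0.18. Msmo1 ranged from 9.69 to 11.98 on high gainer arrays, against 11.5 to 14.3 on low gainer arrays 1, 3 and 4, and the ranges overlapped.

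All 3 tested regulators, of 6 in the list, had differences above 0 that did not pass. Srebf1 encodes SREBP-1, which in liver mainly drives fatty acid synthesis. It had 14.6, 13.4, 15.5 and 12.5 on high gainer arrays, against 15.97, 12.4 and 9.56 on low gainer arrays 1, 3 and 4, for a log2 difference of 0.17. That difference was 6.4e-05 with low gainer array 4 left out and 0.35 with low gainer array 1 left out. Scap, the escort protein, had 14.1 to 17.9 on high gainer arrays, against 12.3 to 18.2 on low gainer arrays, and a log2 difference of 0.11. For Insig2, which encodes a second INSIG protein, the probe in the fit had a log2 difference of 0.19 (from -0.28 to 0.67). For Srebf1 and Scap, as for Insig1, low gainer array 1 was the highest of the 3 low gainer arrays. Insig2 went the other way, with 1.30, 1.23 and 2.08 on low gainer arrays 1, 3 and 4.

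For uptake and transport, 4 of 9 genes were tested, with a median log2 difference of 0.16. Lrp1, a large receptor for apolipoprotein E particles, had 0.973 to 1.14 on high gainer arrays, against 0.741 to 1.13 on low gainer arrays 1, 3 and 4, and a log2 difference of 0.29 (from -0.15 to 0.74). Npc2, a lysosomal sterol carrier, had a log2 difference of -0.20. Stard4, a cytosolic sterol carrier, was at 0.24, and at 0.046 with high gainer array 1 left out or 0.41 with low gainer array 1 left out. Adjusted p was 0.850 or more by limma for these genes.

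Of the genes for efflux, esterification and turnover, 4 of 10 were tested and all 4 had a difference above 0, with a median of 0.31 log2 units. Cyp46a1 encodes the neuronal cholesterol 24-hydroxylase, the main exit of cholesterol from the brain. It had 40.4, 31.8, 30.9 and 30.2 on high gainer arrays 1 to 4, against 29.3, 25.9 and 23.1 on low gainer arrays 1, 3 and 4, and the pools did not overlap. In the normalized log2 values the pools nearly met, at 4.840 on high gainer array 4 against 4.837 on low gainer array 1. On that scale 2.07% of all probes did not overlap in this direction. The fitted log2 difference was 0.36 (95% interval 0.016 to 0.71, limma adjusted p = 0.756), so Cyp46a1 did not pass. Apoe, the apolipoprotein of astrocyte lipid particles, had 139.3, 158.0, 125.4 and 148.8 on high gainer arrays, against 137.3, 77.6 and 123.7 on low gainer arrays 1, 3 and 4. Its log2 difference was 0.36 with all 7 arrays and 0.017 once low gainer array 3 was left out. Of low gainer arrays 1, 3 and 4, array 3 had the lowest oligodendrocyte sum (12.7) and the highest astrocyte sum (52.3). Most of that astrocyte sum was the Aldoc probe, at 47.8. The other astrocyte markers with a value on all 7 arrays, Gja1, Aldh1l1 and Slc1a2, were highest on array 4 of these arrays. The part of cell content in the Apoe values was not tested. Mylip, a sterol-regulated ubiquitin ligase, had a log2 difference of 0.26, which was 0.044 with low gainer array 4 left out and 0.39 with low gainer array 3 left out.

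**Figure D4:**
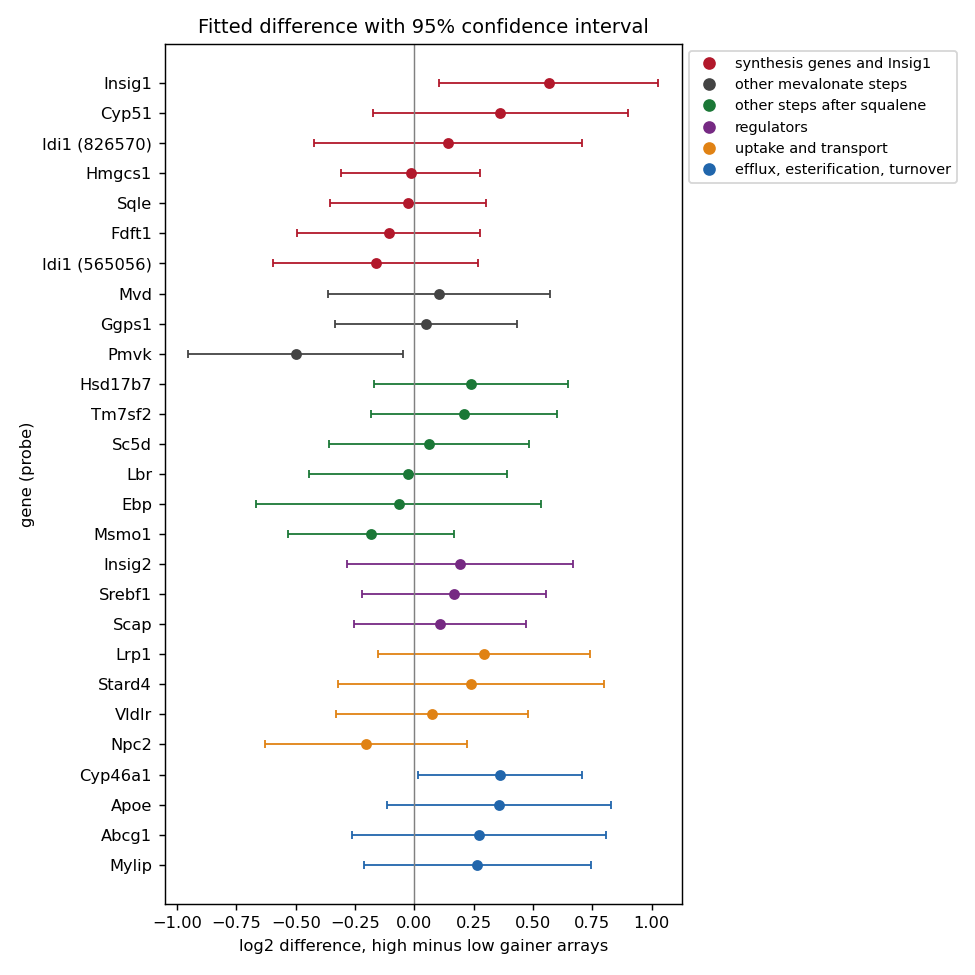
Fitted log2 difference, high minus low gainer arrays, with its 95% confidence interval for the 7 member probes (red) and 20 other pathway probes, coloured by list. The interval leaves out 0 for Insig1 (0.10 to 1.03), Cyp46a1 (0.016 to 0.71) and Pmvk (-0.95 to -0.047), and no adjusted p was under 0.05.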

How the data were processed

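Each of 2 RNA pools (20 mice a pool) was measured on 4 arrays. The authors hybridised digoxigenin-labelled cRNA to a 1-colour Applied Biosystems mouse array and applied quantile normalization across arrays. Intensity was deposited by the authors on a linear scale after that step. The origin of the empty cells is not given in the sources used. The number of arrays limits the precision.

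Probes were named through the platform annotation (1 gene for 14411 probes, several for 247, with 18354 unnamed here), and 14402 matched RefSeq (GRCm38.p6) by gene identifier. Low gainer array 2 was left out, and the 11169 probes complete on the remaining 7 arrays were log2 transformed without a pseudocount, quantile normalized and fitted in limma 3.58.1 under R 4.3.3 (lmFit, eBayes with trend, Benjamini-Hochberg, threshold 0.05). The methods' threshold was an unadjusted p under 0.01 and at least 1.5-fold. The authors used these limits on features filtered by signal to noise and quality flag, a filter not repeated here, so counts at this threshold are not theirs. The procedure was tested on simulated data. Alternatives were other normalizations, filters, a pseudocount of 0.180 (the 10th percentile), all 8 arrays, a replicate block, no trend, array weights, leaving out arrays and the methods' t-test. What is called the methods' t-test here is a pooled-variance t-test, where the authors' methods name an ANOVA. The members, gene lists and the omission of low gainer array 2 were chosen with earlier results of these data known. Named genes were all members, up to 3 of each pathway list by smallest p, and Srebf2. Items of the rule that are not named are not reported here. Nearest profiles were the 5 other named probes with the smallest root mean square distance.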

Additional observations from a re-analysis of the deposited data

Results flagged for a closer look

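Hmgcs1 on low gainer array 2 stood far from the other low gainer arrays. Its intensity there was 2.87, against 38.0 to 44.5 on low gainer arrays 1, 3 and 4. On the log2 scale the gap to the nearest array made up 0.942 of the whole range of the 4 arrays, above the 95% critical value of Dixon's test. Of 11 sets of 4 arrays tested for the members, 1 exceeded that value, and chance gives about 1 in 20. That rate does not hold for an array already known to stand apart. Across all probes low gainer array 2 correlated with the others at an r of only 0.227 to 0.241, so the flag is not particular to Hmgcs1.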

How the results depend on the processing

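No member passed an adjusted p of 0.05 under another normalization, the pseudocount, the filters, all 8 arrays, the block, no trend or array weights (limma), nor by the methods' t-test, and Insig1 stayed above 0 in each of the 17 alternatives that gave it a value. Only the omission of low gainer array 1 changed its call. Leaving out 1 array each moved its log2 difference between 0.35 and 0.87, that of Cyp51 between 0.11 and 0.66, Idi1 probe 565056 between -0.36 and -0.0071, Idi1 probe 826570 between -0.088 and 0.52, Fdft1 between -0.25 and 0.022, Sqle between -0.071 and 0.047, and Hmgcs1 between -0.045 and 0.018. In these settings Mvd ran from -0.013 to 0.21, Scap from -0.027 to 0.23 and Npc2 from -0.35 to 0.024. Hsd17b7 ran from 0.10 to 0.35, Tm7sf2 from 0.099 to 0.27, Msmo1 from -0.25 to -0.059, Ggps1 from 0.0022 to 0.083, Insig2 from 0.088 to 0.38 and Apoe from 0.017 to 0.56. The median of the members ran from -0.039 to 0.022 and that of the other pathway genes from 0.053 to 0.22, the highest value being without low gainer array 1.

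With all 8 arrays the member median was 0.37 over 4 probes, and the log2 difference was 0.20 for Idi1 probe 565056, -0.13 for Cyp51, 0.82 for Hmgcs1, -0.039 for Mvd and -0.37 for Mylip. Fewer probes were tested there, and the array that stands apart entered. Hmgcs1 was 0.017 with the replicate block and 0.0017 with array weights.

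Over all probes, 3 were called, and 1 with the brightest 50% of probes, 1 with all 8 arrays, 9 with the replicate block, 0 by the methods' t-test (477 at an unadjusted p under 0.05) and 2 to 171 with 1 array left out. At the methods' threshold the count was 115 (51 higher and 64 lower), and 54 with the brightest 50%, 3 with all 8 arrays, 176 with the block, 266 with array weights, 19 by the methods' t-test and 19 to 665 with 1 array left out. The highest counts came without low gainer array 1, and at the methods' threshold the count was 36 without high gainer array 1, 19 without low gainer array 3 and 299 without low gainer array 4. The cause of these shifts was not tested. Same-numbered arrays deviated together with r of -0.20, 0.13 and -0.14 for numbers 1, 3 and 4. Other pairs ran from -0.52 (high gainer array 3 with low gainer array 4) to 0.45 (high gainer array 3 with low gainer array 1). Whether same-numbered arrays shared a run was not tested. The block added no call among the members.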
